A study of Nematostella vectensis with 123 samples.

Results

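The later window of this comparison holds 8 embryos of Nematostella vectensis, the starlet sea anemone, collected 12 to 18 h into a time course, and they were set against 9 embryos collected 6 to 12 h into it. These 17 embryos came from a series of 123. They were chosen by their label times, which run from 720 to 1060 min in the later window and from 360 to 680 min in the earlier window. The labels state no unit, and the times were read as minutes from the 4-cell stage, at which each embryo was set aside in its own drop at 20 °C. Each embryo was frozen alone, and its RNA was sequenced with CEL-Seq, a method that barcodes a sample, amplifies its polyadenylated RNA linearly and reads the 3′ end. The pooled library was treated with DSN, a nuclease that removes abundant double-stranded DNA. The embryo at 1000 min was left out by the rule that defined the later window, for its low depth of 56536 gene counts and because its expression resembled that of far earlier embryos. Apart from time, the labels name no treatment, strain or parent for either window, and they do not say whether the eggs had different mothers. Every p-value therefore measures the spread between these embryos, which may be partly technical.

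Nematostella is a cnidarian, a sister lineage of the bilaterian animals, and is used to study how early development is controlled. As in most animals, its first cell divisions run on RNA that the mother placed in the egg. That store is later degraded while the embryo begins to transcribe its own genome, a handover called the maternal-to-zygotic transition. In Nematostella it accompanies the passage from cleavage to a hollow blastula, which then gastrulates and forms the inner and outer layers of a swimming planula larva. The comparison asks which RNAs differ between the later and the earlier side of 12 h.

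The deposited table holds 40499 transcript models, which carry identifiers but no gene names, and none matched the 38762 genes of the reference table. Models are therefore given by identifier, without a known function, and no stage or tissue marker could be looked up to check the labels. Gene counts per embryo, meaning counts on transcript models, were 240961 to 1341689 with a median of 720198 at 12-18 h, against 206062 to 1333573 with a median of 677953 at 6-12 h. At these depths 3 counts correspond to 2.24 to 14.6 CPM (counts per 1000000 gene counts), so models below that level are not measurable in the shallowest embryos. Unaligned counts made up 37.1 to 58.7% of all counts at 12-18 h and 38.3 to 43.8% at 6-12 h. The 58.7% belonged to the embryo at 1060 min, the oldest of the 17, and its part in the results was examined by leaving it out. Within each window no pair of embryos was so alike that it could be a library deposited in duplicate, since chi-square divided by its degrees of freedom was at least 6.76 in every such pair. Pairs across the windows were not compared.

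The order of the 17 embryos along their main axis of expression changed before 12 h. Principal component 1 of log2(CPM + 10) took 44.5% of the variance, against 7.89% for component 2. All 8 embryos of 12-18 h had positive scores on it, from 9.26 in the 720 min embryo to 70.0 in the 1060 min embryo. Of the 9 embryos of 6-12 h, the 7 from 360 to 600 min had negative scores, from -75.2 to -42.5. The remaining embryos of that window, at 640 and 680 min, scored 30.7 and 46.0 and so lay among the later embryos. The score went from -75.2 at 360 min to -42.5 at 560 min and was -69.4 at 600 min. The embryos at 600 and 640 min are the shallowest of their window, with 206062 and 269450 gene counts. Between them, by label time, the score passed through 0, which is the mean of these 17 embryos. That timing rests on the labels of the 640 and 680 min embryos, and whether these labels are right was not tested.

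Likeness to each window, taken from the same profiles, also set the 640 and 680 min embryos nearer to the later window. The full order of the embryos was not the same. The profile of the 680 min embryo had a Pearson correlation across models of 0.85 with the mean of the 12-18 h embryos and of 0.52 with the mean of the other 6-12 h embryos. For the 640 min embryo these values were 0.69 and 0.51, and for the 720 min embryo, with its own profile left out of its window, 0.69 and 0.66. The 560 min embryo, by contrast, had 0.54 with the later mean and 0.81 with the earlier mean. The correlations run across models, are lowered by low depth and are given as descriptions. The labels place both the 640 and the 680 min embryos at 6-12 h, and they were kept there. The main results are also given without them, a choice made after their expression was seen.

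**Figure D1:**
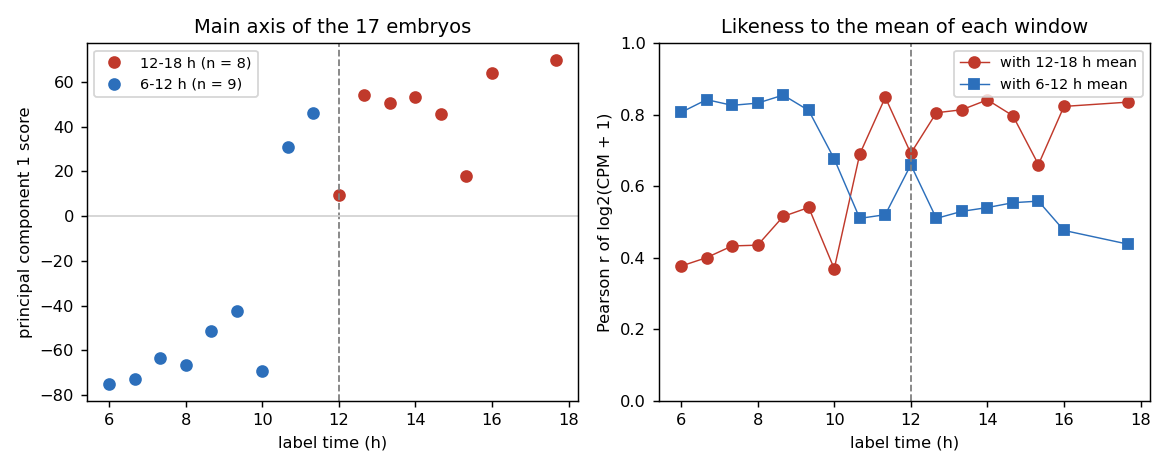
Left, the score of each embryo on principal component 1 of log2(CPM + 10) against label time in hours, with embryos of 12-18 h in red, embryos of 6-12 h in blue and a dashed line at 12 h. Right, the Pearson correlation of each embryo's log2(CPM + 1) profile with the mean of the 12-18 h embryos (red circles) and of the 6-12 h embryos (blue squares), its own profile left out. The last 2 blue points on the left, at 640 and 680 min, score 30.7 and 46.0, with the red points.

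Between the windows 2310 of 9949 tested models changed, which is 23.2% of those tested. The call required a log2 fold change, 12-18 h over 6-12 h, of at least 1 in size and an adjusted p under 0.05 in edgeR's quasi-likelihood test. Of these, 1212 models (12.2%) were higher and 1098 (11.0%) were lower at 12-18 h, so the turnover was nearly balanced, and the median of all tested models was 0.04 on the log2 scale. The balance depends on the scaling. With library sizes set by the ERCC spike-ins, synthetic RNAs added to the samples, the median shifted to 0.49 and 82.8% of 2093 calls were higher, against 52.5% with the standard scaling. Without the 1060 min embryo 1668 models were called. Without the 640 and 680 min embryos 3922 were called.

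Most changes were moderate in size. The log2 fold change was between 1 and 2 for 797 of the higher models, between 2 and 3 for 375 and at least 3 for 40, with a median of 1.72. Among the lower models the same classes held 771, 273 and 54, with a median of -1.68. The higher models were mostly of intermediate abundance. Their mean level had quartiles of 56.3, 94.4 and 180 CPM at 12-18 h, against 15.5, 29.9 and 62.8 CPM at 6-12 h. The lower models had quartiles of 12.2, 24.7 and 46.3 CPM at 12-18 h, against 47.9, 82.7 and 155 CPM at 6-12 h. Very abundant models were few on either side, in counts taken after the DSN treatment of the library. Means of 1000 CPM or more were reached by 27 of the higher models at 12-18 h and by 7 of the lower models at 6-12 h.

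**Figure D2:**
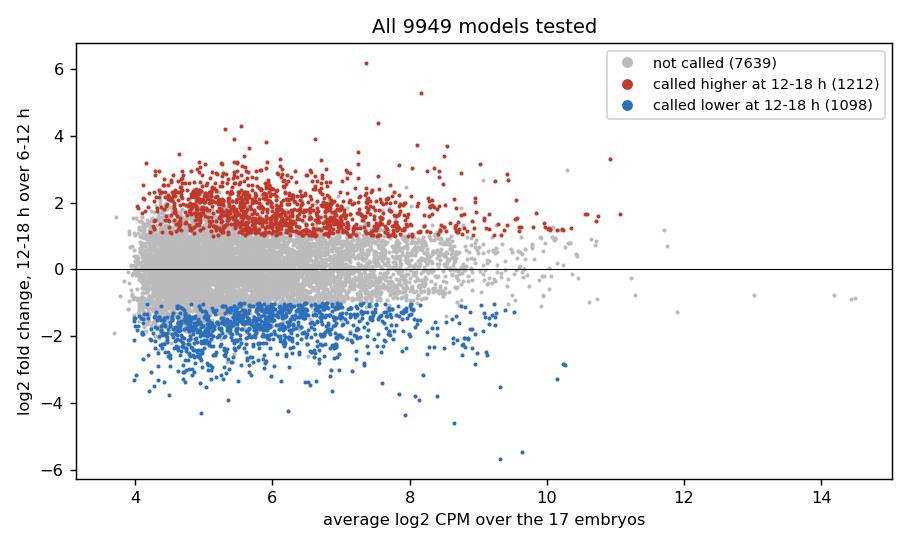
Log2 fold change, 12-18 h over 6-12 h, against average log2 CPM over the 17 embryos, with a point for each of the 9949 tested models. Red points are the 1212 models called higher at 12-18 h, blue points the 1098 called lower and grey points the rest, and both colours run across the whole range of levels up to about 10 on the log2 CPM axis.

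No called model was at 0 counts throughout the window in which it was low. In only 29 tested models (0.291%) did the lowest 12-18 h embryo lie above the highest 6-12 h embryo, and in 36 (0.362%) did the highest 12-18 h embryo lie below the lowest 6-12 h embryo. Of these, 28 and 34 were called. Without the 640 and 680 min embryos these counts were 723 (7.27%) and 579 (5.82%) of the same models. Also without them, 6 of the higher models were at 0 counts in all the 6-12 h embryos that were left. Leaving out each embryo in turn, 684 of the higher and 577 of the lower models were called in all 17 fits. The other called models lost their call in at least 1 of these fits. In 18 of 1212 higher models (1.49%) a single 12-18 h embryo held over 50% of the summed CPM of its window. In 12 of 1098 lower models (1.09%) a single 6-12 h embryo did.

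The called models were also summed, to give their share of gene counts in each embryo. The higher models held 15.5 to 28.7% of gene counts per embryo at 12-18 h with a median of 21.4%, against 4.43 to 16.6% with a median of 5.28% at 6-12 h. Embryo by embryo their share was 7.10% at 560 min, 4.59% at 600 min, 12.8% at 640 min, 16.6% at 680 min, 15.5% at 720 min and 20.9% at 760 min. The lower models held 2.95 to 7.03% with a median of 4.17% at 12-18 h, against 7.71 to 19.3% with a median of 16.8% at 6-12 h. Their share was 15.9% at 560 min, 17.5% at 600 min, 10.1% at 640 min, 7.71% at 680 min, 7.03% at 720 min and 4.05% at 760 min. By label time both shares moved between the 600 and 640 min embryos, and both moved again between 720 and 760 min. The 600 min embryo is the shallowest of the 17, and its shares go against the order of its neighbours. These shares use the values that chose the models and are given as a description, with no test.

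Embryos outside the comparison placed the same models on either side of it. A further embryo of 0-6 h, at 320 min, held 7247 gene counts and was left out, as were all embryos under 50000 gene counts. In the other 9 embryos of 0-6 h the higher models held a median of 4.25% of gene counts, close to the 6-12 h median, and in the 8 embryos of 18-24 h a median of 26.3%. From there to 48 h the window medians stayed between 26.2 and 27.7%. For the lower models the medians were 16.9% at 0-6 h and 3.43% at 18-24 h, and from there to 48 h between 2.94 and 3.51%. The embryo at 1000 min that was left out of the later window held 8.59% on the higher models and 12.1% on the lower models, outside the range of the 12-18 h embryos in both. It was left out for its likeness to earlier embryos, so these values restate that choice.

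**Figure D3:**
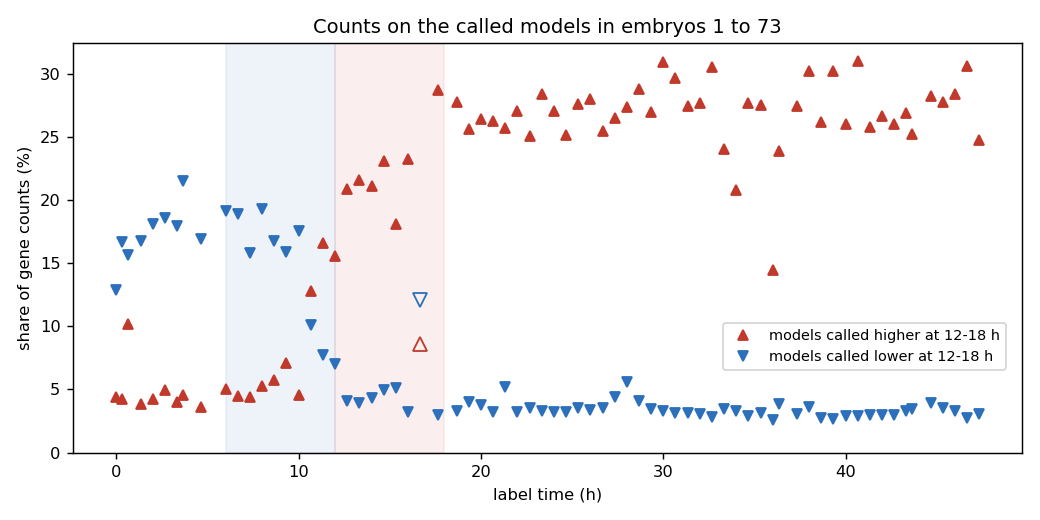
Share of gene counts, in percent, on the models called higher (red triangles) and lower (blue inverted triangles) at 12-18 h, in each of embryos 1 to 73 against label time in hours; shading marks 6-12 h (blue) and 12-18 h (red), and open symbols mark the embryo at 1000 min. The red shares have a median of 21.4% at 12-18 h and of 5.28% at 6-12 h, and the blue shares of 4.17% and 16.8%.

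The 18-24 h and 0-6 h embryos also give a test in animals that took no part in choosing the models. In edgeR's quasi-likelihood test of these 8 against 9 embryos, 3961 of 12170 models (32.5%) were higher and 3302 (27.1%) lower at 18-24 h. Of the 1212 models called higher at 12-18 h, 1187 could be tested there. Of those, 1124 (94.7%) were higher at 18-24 h than at 0-6 h, 5 were lower, and the median log2 fold change was 2.95. Of the 1098 models called lower, 1074 could be tested, of which 943 (87.8%) were lower, 1 was higher and the median was -2.17. Over all 9615 models tested in both comparisons, 31.4% were higher, 26.9% were lower and the median was 0.07. For most called models the difference between the windows thus had the same direction as the change between 18-24 h and 0-6 h in other embryos.

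After 18 h most of the called models stayed within 1 log2 unit of their 12-18 h level. At 18-24 h the median difference still went in the called direction, at 0.37 for the higher and -0.34 for the lower models. Against the 12-18 h mean, on the log2(mean CPM + 1) scale, 1024 of the 1212 higher models were within 1 unit at 18-24 h, 141 were up by at least 1 and 47 were down by at least 1. At 42-48 h, 694 were within 1 unit, 323 were up and 195 were down. Of the 1098 lower models, 815 were within 1 unit at 18-24 h, 232 were down further and 51 were up. At 42-48 h these counts were 687, 314 and 97. The 12-18 h values in these differences also entered the calls, so the counts are descriptive. No counts over all tested models stand beside them, so they show no trait particular to the called models.

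The 0-6 h embryos were also used to sort models by whether their RNA was already present at the start. A model was placed in the maternal class if its median in these 9 embryos was at least 10 CPM. The class is a level and not proof of maternal origin, since the 0-6 h embryos used run up to 280 min. Of the 8476 tested models of this class, 1085 (12.8%) fell and 705 (8.32%) rose at 12-18 h, with a median log2 fold change of -0.12. The class made up 85.2% of all tested models, against which it held 98.8% of the lower calls, all but 13, and 58.2% of the higher calls. A model that is low at 0-6 h and falls at 12-18 h passes the filter on low counts mainly through the 6-12 h embryos, so these shares are partly fixed by the filter. In bulk RNA of a whole embryo, fewer cells of a type and less RNA per cell cannot be told apart.

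Models below that level but with some counts at 0-6 h gave most of the remaining rises. Of 1451 tested, 499 (34.4%) rose and 13 (0.896%) fell, with a median of 1.24. In all, 17300 models belong to this class, and one that is near 0 at 6-12 h can pass the filter on low counts only through the later embryos. The high share of rises is therefore partly fixed by the filter and is no comparison with the maternal class. Of 12323 models with 0 counts in all 0-6 h embryos, 22 were tested, of which 8 rose and 0 fell.

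The called models of each class had the following shares by window. The 0-6 h share is set by how the classes were defined, and the 6-12 h and 12-18 h shares use the values that chose the models. The 705 rising models of the maternal class held a median of 4.04% of gene counts at 0-6 h, 4.76% at 6-12 h, 16.8% at 12-18 h and 19.8% at 18-24 h. The 499 rising models below the maternal level held 0.209%, 0.579%, 4.64% and 6.56% in the same windows, then 7.26% at 24-30 h and 8.32% at 30-36 h. Most of the share gained by the rising set at 12-18 h over 6-12 h lay on models of the maternal class. The filter on low counts passed 77.9% of all models of that class. It passed 8.39% of those below the maternal level with some counts at 0-6 h, so this split is partly fixed by the filter and the class limit. The 1085 falling models of the maternal class held 16.9%, 16.5%, 4.14% and 3.42%. Their share at 6-12 h was close to that at 0-6 h, which the call partly fixes. It required a higher level at 6-12 h than at 12-18 h, and so favours models not yet lost by 6-12 h. These shares therefore do not show how much of the maternal store was left at 6-12 h.

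The 13 falling models outside the maternal class were low before and after 6-12 h, a shape that the class limit, the call and the filter on low counts largely fix. Together they held a median of 0.00572% of gene counts at 0-6 h, 0.226% at 6-12 h, 0.0240% at 12-18 h and 0.00527% at 18-24 h. In single embryos of 6-12 h their summed share was lowest in the 600 min embryo, at 0.0975%, and highest in the 560 min embryo, at 0.505%. The 12-18 h embryos had 0.00665 to 0.0469%, so the ranges did not overlap. The highest share before 6 h was 0.0747%, in the embryo at 200 min, while the other 8 embryos of 0-6 h had at most 0.0137%. What the choice did not use is the 18-24 h level, and all 13 had a lower mean at 18-24 h than at 12-18 h. The 1098 lower models as a whole also went down, with a median log2 difference of -0.34 between these windows. A further fall is therefore not shown to be particular to the 13. The set was picked out after its values were seen and received no test.

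Models are grouped below by what they did, and those named follow a rule on size and on being called in every fit that left out 1 embryo. Nv.T1.8062.3 was the riser with the largest log2 fold change under that rule. Its level at 12-18 h ran from 37.1 to 2532 CPM with a median of 76.9, against 3.80 to 60.0 CPM with a median of 10.3 at 6-12 h. The windows overlapped, through the 680 min embryo at 60.0 CPM. The fitted log2 fold change was 4.38 ± 0.91 (SE), with an adjusted p of 0.0051 in edgeR. Its size rests on the 920 min embryo, which held 84.2% of the window's summed CPM. With it left out the estimate was 1.94 ± 0.47 and the adjusted p in edgeR was 0.0091. At 18-24 h the median was 103 CPM and at 0-6 h 8.59 CPM.

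Nv.T1.40031.1 rose at 12-18 h and was close to the detection limit at 6-12 h. It had 18.6 to 178 CPM with a median of 81.5 at 12-18 h, against 0 to 29.1 CPM with a median of 1.48 at 6-12 h, where 4 embryos had 0 counts. The embryos at 640 and 680 min were among those 4, so this model did not join the early shift of the main axis. The windows overlapped only through the 600 min embryo at 29.1 CPM. The log2 fold change was 4.29 ± 0.77 (SE), with an adjusted p of 0.0034 in edgeR. The model was not silent earlier, since its median at 0-6 h was 13.5 CPM, which puts it in the maternal class. Its later medians went down and up again, at 56.4 CPM at 18-24 h, 15.4 CPM at 24-30 h, 15.1 CPM at 30-36 h, 55.8 CPM at 36-42 h and 27.8 CPM at 42-48 h.

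Nv.T1.8771.2 was among the 13 falling models outside the maternal class and had the largest fall under the naming rule. It had 0 to 62.3 CPM with a median of 14.8 at 12-18 h, against 44.2 to 1496 CPM with a median of 351 at 6-12 h. The 12-18 h embryos at 720 and 920 min lay above the lowest 6-12 h value, which was that of the 680 min embryo. The log2 fold change was -4.35 ± 0.77 (SE), with an adjusted p of 0.0034 in edgeR. Before 6 h the median was 3.35 CPM. The 200 min embryo, at 171 CPM, held 85.2% of that window's sum, and by 18-24 h the median was 0.293 CPM.

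Nv.T1.13523.1 followed the same course without overlap between the windows. It had 0 to 27.6 CPM with a median of 2.61 at 12-18 h, against 30.0 to 308 CPM with a median of 89.1 at 6-12 h. The log2 fold change was -4.24 ± 0.73 (SE), with an adjusted p of 0.0034 in edgeR. At 0-6 h the median was 2.47 CPM, and the 200 min embryo, at 105 CPM, again held most of the sum, 82.7%. At 18-24 h the model was at 0 counts in 6 of 8 embryos.

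**Figure D4:**
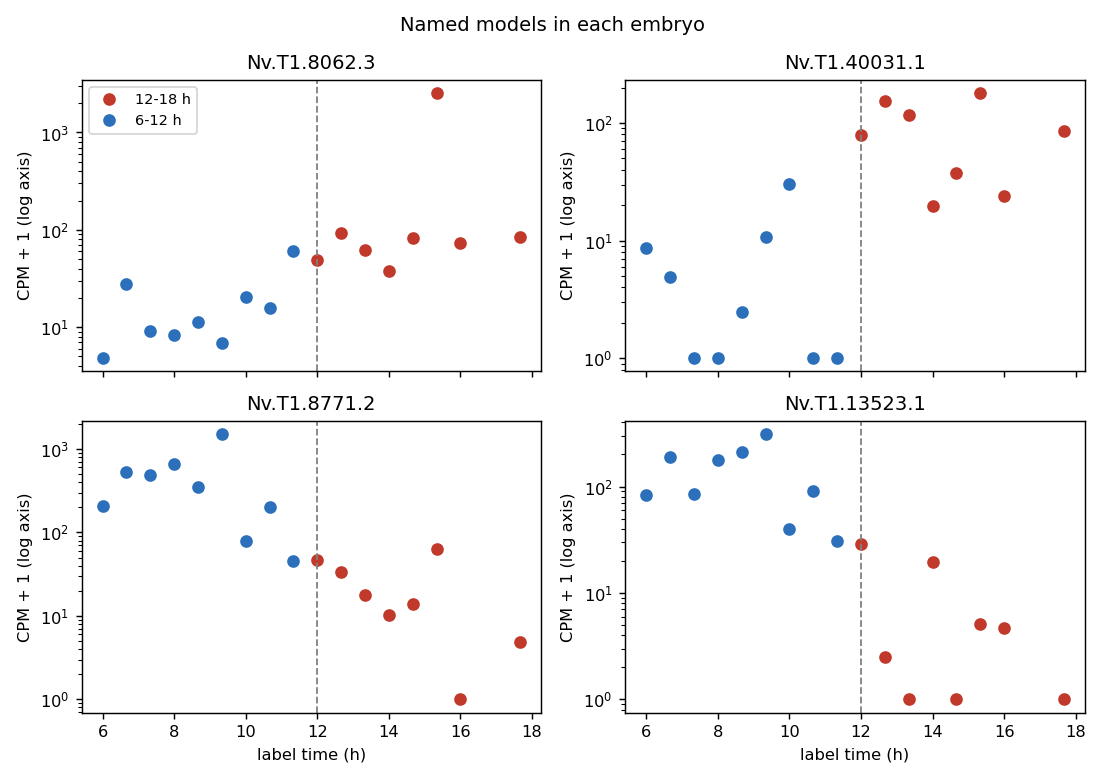
Level of the 4 named models in each embryo, as CPM + 1 on a log axis, against label time in hours, with embryos of 12-18 h in red and of 6-12 h in blue. In the upper row the red points lie higher, with the 920 min embryo of Nv.T1.8062.3 far above the rest at 2532 CPM; in the lower row the red points lie lower, and those of Nv.T1.13523.1 do not overlap the blue points.

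Within the 6-12 h window itself, RNA levels moved with label time. Of 11770 tested models, 740 (6.29%) had a slope at an adjusted p under 0.05 in edgeR, 590 upward and 150 downward. Nv.T1.21006.1, the upward model with the smallest p, had 7.61, 17.8, 28.5, 35.1, 78.2, 139, 67.9, 431 and 801 CPM in the 9 embryos from 360 to 680 min. Its slope was 1.19 ± 0.12 log2 units per hour (SE), with an adjusted p of 0.00025 in edgeR. The only drop in this run was at 600 min. In embryos that the slope did not use, the model had 509 to 1970 CPM at 12-18 h and 1947 to 2847 CPM at 18-24 h. Nv.T1.63098.1, the downward model with the smallest p, had 276, 149, 166, 155, 91.5, 76.6, 63.1, 44.5 and 13.5 CPM in the same embryos. Its slope was -0.63 ± 0.11 log2 units per hour (SE), with an adjusted p of 0.0063 in edgeR. It had 14.2 to 51.6 CPM at 12-18 h and, unlike most falling models, was higher again at 18-24 h, with 35.8 to 102 CPM.

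The number of slopes at 6-12 h depended on single embryos at both ends of the window, most of all on the 680 min embryo. Without the 680 min embryo 2 models were called, without the 640 min embryo 245, without the 400 min embryo 237, without the 360 min embryo 289 and without the 600 min embryo 1532. Without both the 640 and the 680 min embryos edgeR called 0 models, while 685 had an unadjusted p under 0.05.

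Within 12-18 h no slope was called. In edgeR 0 of 12875 models (0.0%) passed, 837 had an unadjusted p under 0.05, and DESeq2 called 76. With label time as a straight line across both windows, a step at 12 h on top of it was called for 0 of 13103 models (0.0%) in edgeR, while 545 had an unadjusted p under 0.05 and DESeq2 called 44. Among embryos within 180 min of 12 h, edgeR called 0 models between the windows, with 836 at an unadjusted p under 0.05. That set has fewer embryos, and the 640 and 680 min embryos are among them. Its 0 calls therefore cannot tell a missing difference from too few embryos. Among embryos more than 180 min from 12 h, also a smaller set, 3754 models were called. In the step test of all 17 embryos, edgeR detected no jump at the 12 h boundary, which does not show that there was none. Without the 640 and 680 min embryos the step was called for 32 models, 27 of them upward, with 1517 at an unadjusted p under 0.05.

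Models that share an identifier stem, the part of the name before its last number, moved mostly the same way. Whether a stem stands for a locus is not given. If models of a stem overlap, their counts are not independent, so their agreement may be partly built in. It was not tested against chance. Without the 2 stems that hold the most models, 560 stems had at least 2 tested models and 105 had at least 2 called models. All called models rose in 71 of these stems and all fell in 27, while 7 stems held calls in opposite directions. Of those 7, summing the models of a stem left 1 called. The stem with the most models, 3153 of them, had 642 tested, of which 218 (34.0%) rose and 9 (1.40%) fell. The stem with the second most, 539 models, had 374 tested, of which 54 (14.4%) rose and 66 (17.6%) fell. Counts of near-identical or overlapping models may be split between them, so single models of these stems are uncertain. Over all other stems, 10.5% of 8933 tested models rose and 11.5% fell.

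Measures of the whole library were compared as well. Gene counts per spike-in count, a measure of captured RNA per embryo, ran from 1.70 to 4.67 with a median of 3.44 at 12-18 h, against 1.62 to 3.24 with a median of 2.16 at 6-12 h. The geometric means were 3.11 and 2.20. The log2 difference was 0.50 ± 0.22 (SE, 8 and 9 embryos), with an exact two-sided permutation p of 0.037 and an adjusted p of 0.19 over the 5 measures tested. It did not pass the correction. Without the 920 min embryo the log2 difference was 0.62 and the adjusted permutation p 0.042. Without the 640 and 680 min embryos these were 0.63 and 0.081. The amount of spike-in RNA per embryo was not given, so the ratio is no absolute amount.

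No difference in how counts spread over models passed the correction. The counts were taken after the DSN treatment, and its effect on these measures was not tested. At an equal depth of 206062 counts, 15324 ± 582 models were detected at 12-18 h and 15038 ± 1207 at 6-12 h (SD, n = 8 and 9, exact permutation p = 0.55), a difference of 286 ± 452 (SE). The 100 most abundant models held 20.1 ± 1.90% of gene counts at 12-18 h and 22.0 ± 3.91% at 6-12 h, with an adjusted exact permutation p of 0.55. The 10 most abundant held 8.06 ± 2.32% at 12-18 h and 12.2 ± 4.79% at 6-12 h. The difference was -4.09 ± 1.79 points (SE), with an exact permutation p of 0.036. Its adjusted permutation p was 0.093, with this share in place of that of the 100 most abundant among the 5 measures. The stem with the most models held 13.0 ± 2.05% at 12-18 h and 13.9 ± 3.46% at 6-12 h. The stem with the second most held 10.5 ± 0.86% at 12-18 h and 10.3 ± 0.51% at 6-12 h. Neither share passed the test, both with an adjusted exact permutation p of 0.55.

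**Figure D5:**
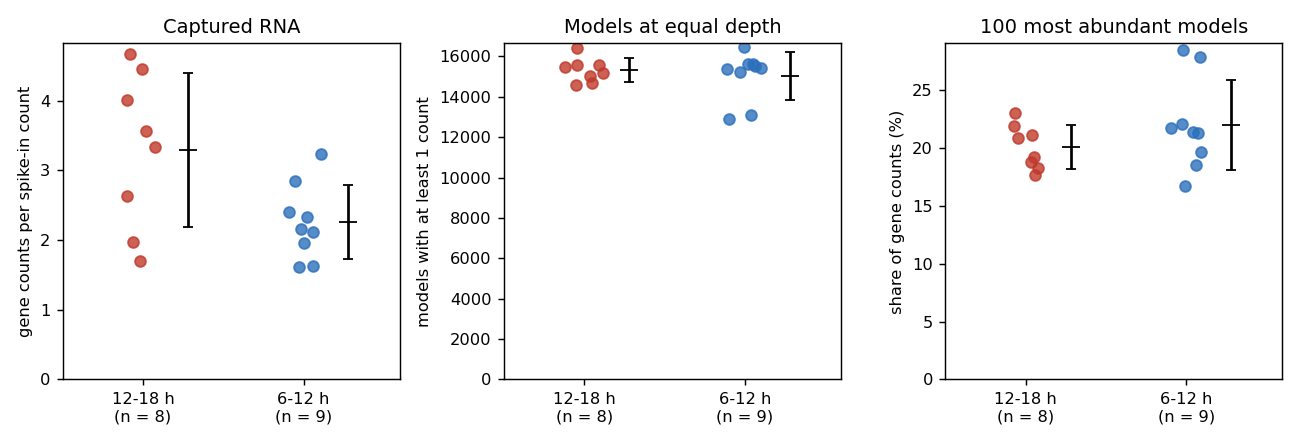
Gene counts per spike-in count, models with at least 1 count at an equal depth of 206062 counts, and the share of gene counts in the 100 most abundant models, with a point per embryo, 12-18 h (red, n = 8) left of 6-12 h (blue, n = 9). Bars give the mean and SD, and the windows overlap in all 3 measures.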

How the data were processed

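The values are raw counts, whole numbers that the authors deposited without normalization, for 40499 transcript models, 92 ERCC spike-ins and 5 summary entries. Per the submitters' processing notes, the tools included HTSeq 0.5.4p3, Bowtie2 2.1.0 and CASAVA 1.8. Build and annotation are not given in the sources used here. The sources name no molecular identifiers, so counts may be reads and not molecules, and the floor of 3 counts covers counting error only. Summary entries and spike-ins stayed out of library sizes.

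The windows were set by label time. The members and lists were chosen with earlier results of these data known. Counts were tested with edgeR 4.0.16 in R 4.3.3, after filterByExpr and TMM scaling, by its quasi-likelihood F test with Benjamini-Hochberg adjustment, and slopes and the step had no fold threshold. The SE of a fold change is its size divided by the square root of F. CPM use the summed gene counts. Library measures were tested with exact permutation tests over embryos. The procedure was tested on simulated data. DESeq2 1.42.0 and limma 3.58.1 (voom with quantile scaling) were alternatives, with other filters, depths and sets of embryos.

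Models were named if called in the fit of all 17 embryos and in each fit leaving out 1 embryo, with a mean of at least 10 CPM in the higher window and outside the 2 largest stems. The 2 largest changes in each direction are given. For slopes, the model with the smallest p in each direction is given.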

Additional observations from a re-analysis of the deposited data

Results flagged for a closer look

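In 32 groups of embryos, each a window's values of 1 measure or named model, 6 had a highest value that stood apart by Dixon's test. For normally distributed values, chance gives this in about 5% of groups. CPM of single models can be far from that shape, and the named models were chosen for large changes. The 6 of 32 is therefore not read as an excess over that rate. Nv.T1.8062.3 was at 2531.53 CPM in the 920 min embryo, against at most 92.0 CPM in the other embryos of 12-18 h, and at 59.9892 CPM in the 680 min embryo at 6-12 h. Nv.T1.40031.1 was at 29.1175 CPM in the 600 min embryo, the shallowest of the 6-12 h window. Nv.T1.8771.2 was at 1496.03 CPM in the 560 min embryo at 6-12 h. Unaligned counts reached 58.7142% in the 1060 min embryo at 12-18 h. The stem with the second most models held 11.4373% of gene counts in the 440 min embryo at 6-12 h.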

How the results depend on the processing

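The count of 2310 models changed between 12-18 h and 6-12 h was 1668 to 2875 under 11 alternatives (such as scaling, tool, filter, with the 1000 min embryo, without the 1060 min embryo); with models summed by stem, 1544 stems were called. It was 1668 to 3145 when each embryo was left out in turn. It was 0 within 180 min of 12 h, 1334 when all embryos were thinned to equal depth, 5048 in 1 fit over all windows, 3754 with embryos more than 180 min from 12 h and 3922 without the 640 and 680 min embryos. The first has fewer embryos and thinning has fewer counts; otherwise the cause was not tested. For slopes within 6-12 h (740) the count was 1614 in DESeq2, 1280 with no filter, 0 without the 640 and 680 min embryos, and 2 to 1532 leaving out each embryo. For slopes within 12-18 h (0) it was 76 in DESeq2, 24 with no filter, 15 with embryos of at least 300000 gene counts and 0 to 15 leaving out each embryo. For the step at 12 h (0) it was 44 in DESeq2, 167 with no filter, 5 with the 1000 min embryo, 3 without the 1060 min embryo, 32 without the 640 and 680 min embryos, 5 with embryos of at least 300000 gene counts and 0 to 3 leaving out each embryo. For 18-24 h against 0-6 h it was 15488 with no filter, against 7263 with one. The log2 difference in gene counts per spike-in count passed the correction with embryos of at least 300000 gene counts (0.64). It ran from 0.42 to 0.62 leaving out each embryo. It was 0.10 with the 1000 min embryo and 0.31 within 180 min of 12 h, and passed in neither. The 4 named models kept their direction under every alternative run and lost their call only within 180 min of 12 h, where their log2 fold changes were 1.27 for Nv.T1.8062.3, 3.32 for Nv.T1.40031.1, -4.36 for Nv.T1.8771.2 and -3.72 for Nv.T1.13523.1. The calls of the 4 named models in the fits that left out 1 embryo, the 1060 min embryo included, were fixed by the naming rule. Nv.T1.40031.1 and Nv.T1.13523.1 did not pass the filter after thinning. The embryos with at least 300000 gene counts, those more than 180 min from 12 h and the removal of the 640 and 680 min embryos were chosen after seeing the data. The last leaves out embryos for their expression, which by itself widens the difference. No paired analysis was possible because the labels give the embryos no replicate numbers. Depth limits what can be said below about 14.6 CPM in the shallowest embryo.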
